A study of Paramacrobiotus metropolitanus with 7 samples.

Results

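The 6 transcripts described here encode AMNP, the tardigrade-specific manganese-dependent peroxidase, in the gonochoristic tardigrade Paramacrobiotus metropolitanus. They form 3 pairs with locus numbers that lie side by side or 1 number apart. Pair A is PARRI_0003559.t1 with PARRI_0003560.t1, pair B is PARRI_0005098.t1 with PARRI_0005100.t1, and pair C is PARRI_0013908.t1 with PARRI_0013909.t1. The members were listed by identifier from the 36 AMNP transcripts that the study annotated. They are 6 of the 26306 transcripts in the expression matrix. The list was made with earlier results of these data known, so the choice was not blind. Closeness here rests on the locus number alone, since coordinates were not used, and these are not the only AMNP loci with such numbers. Of the other 30 AMNP transcripts, 18 had a locus number within 2 of another AMNP locus.

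Peroxidases use an electron donor to break down hydrogen peroxide and organic peroxides, which damage lipids, proteins and DNA. Many tardigrades survive almost complete loss of body water, a state called anhydrobiosis, and drying and rehydration are accompanied by oxidative stress. AMNP was first described in another tardigrade, Ramazzottius varieornatus, as a peroxidase that depends on manganese ions and has relatives only among tardigrades. What separates the individual P. metropolitanus copies in function was not examined here, so the 6 members are treated as copies of 1 family.

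The libraries were made from whole bodies of adults of the TYO laboratory strain, with 3 libraries of females and 4 of males. Each library came from a tube of pooled specimens, which had been reared apart and sexed by their sexual organs, and no group carried a treatment. A library is therefore a mean over many animals of 1 sex, and fewer cells that express a gene cannot be told apart from less RNA per cell. The labels do not say that the tubes came from separate cultures, so the p-values measure only the spread between these tubes.

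Values are TPM, a level corrected for transcript length and library size, which the authors rescaled between libraries by the TMM method. A library summed to between 891117 and 1127680 on this scale, which keeps no read depth. The authors' mean normalized counts per sex give an idea of the sampling error, and for the members they ran from 208 to 1797 in females and from 396 to 3990 in males. Counting alone would give a relative SD between 2.36% and 6.93% for the female libraries and between 1.58% and 5.03% for the male libraries, if a library held such a count. Female library 1 stood apart for AMNP. Its median deviation over transcripts that averaged 10 TPM or more from the mean of the females was -0.37 on the log2 scale, yet it held the highest female value for 5 of the 6 members and female library 3 held the lowest for the same 5. That order of the females was seen in 21.9% of the 18420 tested transcripts and in 17 of the 28 other AMNP transcripts that were tested.

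The question addressed first was whether the members differ in level between the sexes. All 6 had a higher fitted level in males, and 3 passed the test: PARRI_0003560 of pair A and both members of pair C. The test was limma with sex as its term, run on log2(TPM + 0.1), and p-values were adjusted (FDR) over all 18420 tested transcripts. Past an FDR of 0.05 in the male direction were 3 of 6 members, against a background of 25.3% of tested transcripts higher in males and 49.3% changed in either direction. Every male library lay above every female library for 3 of 6 members, against 28.1% of tested transcripts. The median log2 difference (males minus females) was 0.95 for the members and 0.50 for all tested transcripts, and 5 of the 6 members lay above that general median.

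**Figure D1:**
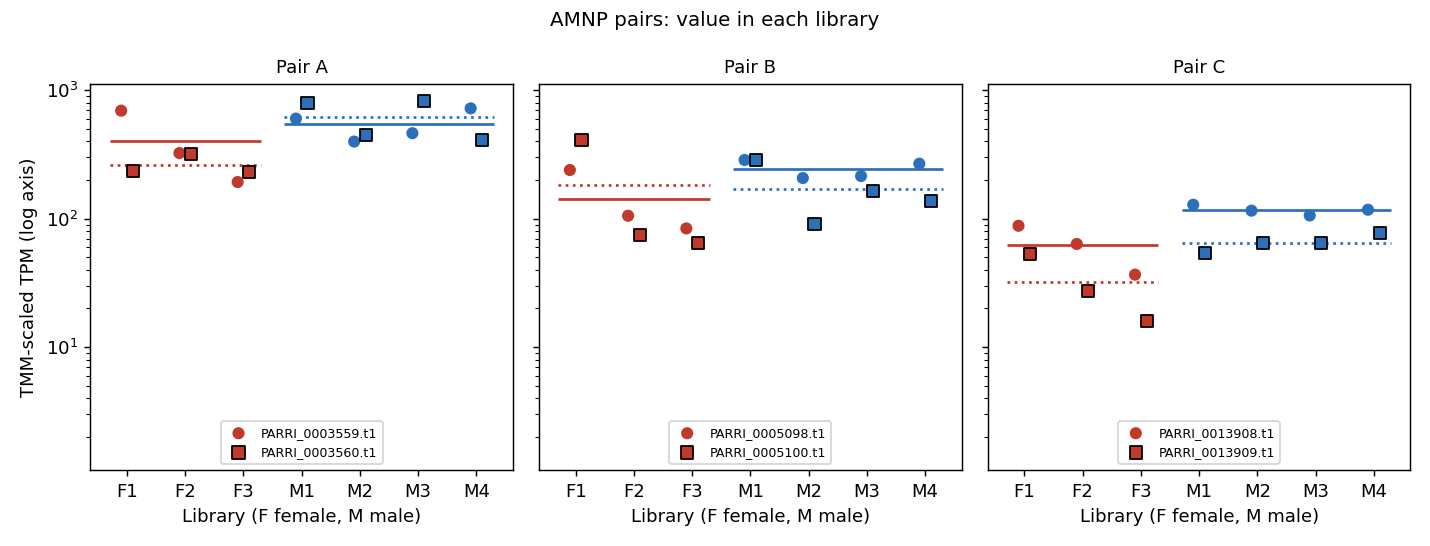
TMM-scaled TPM (log axis) of both members of each pair in the 3 female (F1 to F3, red) and 4 male (M1 to M4, blue) libraries. Circles are the first member and squares the second, and solid and dotted lines are their means per sex. In pair C the circle stands above the square in all 7 libraries, whereas in pairs A and B the order changes between libraries.

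Pair A was the most abundant. PARRI_0003559 stood at 692, 324 and 193 TPM in female libraries 1 to 3 and at 600.2, 398, 462 and 721 TPM in male libraries 1 to 4. The highest female library exceeded 3 of the 4 male libraries, and the groups overlapped. The female mean was 403 ± 259 TPM (SD, n = 3) and the male mean 545 ± 144 TPM (SD, n = 4), a ratio of 1.35. The log2 difference was 0.60 with an SE of 0.44 (95% interval -0.42 to 1.62), and it did not pass the test (limma FDR 0.276). This member took its female spread from library 1, which was 3.59-fold above library 3.

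PARRI_0003560, its neighbour, stood at 235, 318 and 230.0 TPM in the females and at 792, 449, 820 and 410 TPM in the males. All 4 male libraries lay above all 3 female libraries. The males were divided among themselves, with libraries 1 and 3 well above libraries 2 and 4. Its level rose from a female mean of 261 ± 49.7 TPM (SD, n = 3) to a male mean of 618 ± 218 TPM (SD, n = 4), a ratio of 2.37. The log2 difference was 1.19 with an SE of 0.34 (95% interval 0.42 to 1.96; limma FDR 0.0206). Female libraries 1 and 3 differed by only 1.02-fold for this transcript, the smallest such fold of the 6 members. The call was lost without female library 3 (FDR 0.0698) and without male library 1 (FDR 0.0551).

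In pair B neither member passed. PARRI_0005098 stood at 239, 105 and 83.9 TPM in the females and at 286, 207, 214 and 268 TPM in the males. Female library 1 lay within the male range and the other females below it. Females averaged 143 ± 84.0 TPM (SD, n = 3) and males 244 ± 39.0 TPM (SD, n = 4), a ratio of 1.71, with a log2 difference of 0.91 and an SE of 0.37 (95% interval 0.06 to 1.76; limma FDR 0.0707). Without female library 1 the difference was 1.36 and passed (limma FDR 0.00359).

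PARRI_0005100 had the widest spread of all members in both sexes. Its values were 409, 74.2 and 64.4 TPM in the females and 288, 90.2, 163 and 136 TPM in the males. The highest value of the 7 libraries was that of female 1, 6.36-fold above female 3, and the males spanned 3.20-fold. Females averaged 183 ± 196 TPM (SD, n = 3) and males 169 ± 84.7 TPM (SD, n = 4). The ratio of these means was 0.927, while the log2 difference was 0.31 with an SE of 0.67 (95% interval -1.23 to 1.84; limma FDR 0.705), so that the direction itself was not settled. This was the only member below the general median of the log2 difference, by 0.19.

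Pair C was the least abundant, and both of its members were higher in males. PARRI_0013908 stood at 88.0, 63.5 and 36.7 TPM in the females and at 128, 115, 106 and 117 TPM in the males. Its males spanned only 1.21-fold, the narrowest male range of the 6, and all lay above the females. The mean rose from 62.7 ± 25.7 TPM (SD, n = 3) to 117 ± 9.21 TPM (SD, n = 4), a ratio of 1.86. The log2 difference was 0.98 with an SE of 0.31 (95% interval 0.27 to 1.69; limma FDR 0.0310).

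PARRI_0013909 stood at 53.3, 27.5 and 16.1 TPM in the females and at 53.7, 64.4, 64.4 and 76.7 TPM in the males. The groups did not overlap, but female 1 came within 1 TPM of male 1. The mean rose from 32.3 ± 19.1 TPM (SD, n = 3) to 64.8 ± 9.41 TPM (SD, n = 4), a ratio of 2.00. The log2 difference was 1.16 with an SE of 0.39 (95% interval 0.27 to 2.06; limma FDR 0.0383). For both members of pair C, leaving out any single library other than female 1 took the FDR above 0.05, to at most 0.0801 for PARRI_0013908 and 0.114 for PARRI_0013909. Without female 1 the FDR of PARRI_0013908 was 0.00682 and that of PARRI_0013909 was 0.00328.

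**Figure D2:**
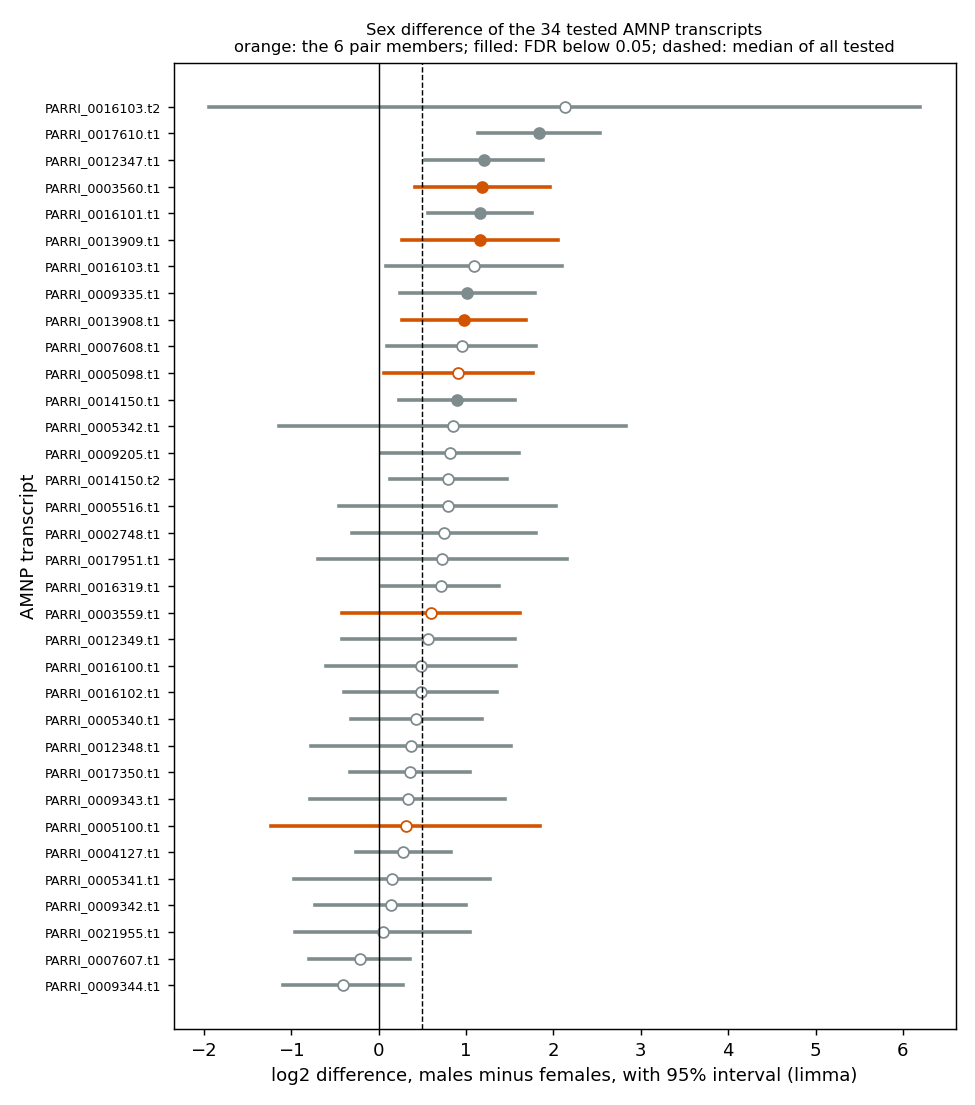
Log2 difference between males and females of each tested AMNP transcript with its 95% interval from limma. The 6 pair members are orange, filled points passed an FDR of 0.05, the dashed line is the median of all tested transcripts (0.50), and all filled points lie to the right of 0.

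Across the 6 members, the spread between female libraries was wider than the male spread for all except PARRI_0003560. The SD of log2 values among females was 0.93 for PARRI_0003559, 0.26 for PARRI_0003560, 0.79 for PARRI_0005098, 1.48 for PARRI_0005100, 0.64 for PARRI_0013908 and 0.86 for PARRI_0013909. The median over tested transcripts that averaged 10 TPM or more was 0.55, so 5 members were more variable among females than a typical transcript. Among males the SD ran from 0.11 for PARRI_0013908 to 0.70 for PARRI_0005100, around a general median of 0.35. Whether the composition of the female tubes bears on these values was not tested.

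The members were abundant transcripts. Only 1.73% of tested transcripts had a higher mean than PARRI_0003559 and 1.84% than PARRI_0003560. The share was 4.29% for PARRI_0005098, 4.91% for PARRI_0005100, 9.34% for PARRI_0013908 and 17.6% for PARRI_0013909. In males the order of mean TPM was PARRI_0003560, PARRI_0003559, PARRI_0005098, PARRI_0005100, PARRI_0013908 and PARRI_0013909, and the first was 9.53-fold above the last. The libraries of neighbours in this order overlapped for the 2 members of pair A, for the 2 members of pair B, and for PARRI_0005100 with PARRI_0013908, but not for PARRI_0003559 with PARRI_0005098 nor for the 2 members of pair C. In females PARRI_0003559 came before PARRI_0003560 and PARRI_0005100 before PARRI_0005098, and every neighbour in the order overlapped with the next.

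The second question was how the 2 members of a pair compare within each library, where both values come from the same tube. TPM is per length, so levels of different transcripts can be set side by side. In pair A neither member was the higher throughout. PARRI_0003559 made up 74.7%, 50.4% and 45.6% of the summed TPM of the pair in female libraries 1 to 3. In male libraries 1 to 4 its share was 43.1%, 47.0%, 36.1% and 63.7%. It was the higher member in 3 of 7 libraries, by 2.95-fold in female 1, 1.76-fold in male 4 and 1.02-fold in female 2. The mean log2 ratio of PARRI_0003559 to PARRI_0003560, with the sexes weighted equally, was 0.15 with an SE of 0.28 (95% interval -0.49 to 0.79; limma FDR 0.643).

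Pair B changed its order as well. PARRI_0005098 made up 36.8%, 58.7% and 56.6% of the pair in the females and 49.8%, 69.7%, 56.8% and 66.3% in the males. It was the higher member in 5 of 7 libraries, with PARRI_0005100 above it in female 1 and, narrowly, in male 1. The mean log2 ratio of PARRI_0005098 to PARRI_0005100 was 0.34 with an SE of 0.22 (95% interval -0.16 to 0.84; limma FDR 0.186). Without female 1 the ratio was 0.54 and passed (limma FDR 0.0378).

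Pair C kept its order. PARRI_0013908 made up 62.3%, 69.8% and 69.5% of the pair in the females and 70.5%, 64.2%, 62.2% and 60.4% in the males, and was the higher member in 7 of 7 libraries. The mean log2 ratio was 0.95 with an SE of 0.13 (95% interval 0.64 to 1.26), or 1.93-fold (limma FDR 0.000293). The same fit was made for all 28543 pairs of tested first transcripts with locus numbers 1 or 2 apart, of which 75.9% had a level ratio past an FDR of 0.05, so the share of 1 in 3 AMNP pairs lay below this background.

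**Figure D3:**
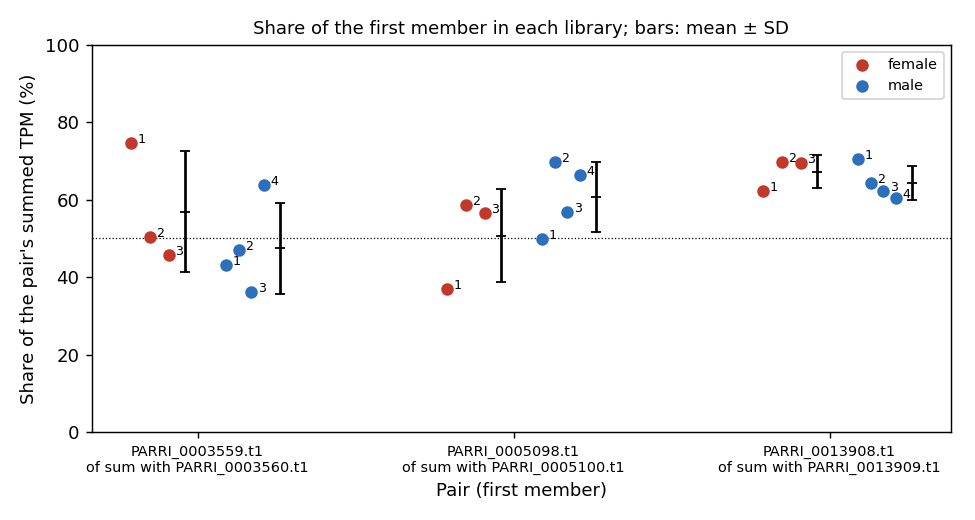
Share (%) of the summed TPM of a pair that the first member made up in each library. Points carry the library number, bars are mean ± SD per sex, and the dotted line marks equal levels. The shares of pair C lie between 60.4% and 70.5%, while those of pairs A and B fall on both sides of the line.

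Whether the balance within a pair differed between the sexes was tested on the log2 ratio itself, since a call in 1 member and not in its neighbour is no such test. None of the 3 ratios passed. In pair A the share of PARRI_0003559 was 56.9 ± 15.6% (SD, n = 3) in females and 47.5 ± 11.8% (SD, n = 4) in males, and the log2 ratio changed by -0.59 with an SE of 0.55 (95% interval -1.87 to 0.69; limma FDR 0.440). In pair B the share of PARRI_0005098 was 50.7 ± 12.0% (SD, n = 3) in females and 60.6 ± 9.04% (SD, n = 4) in males, with a change of 0.60 and an SE of 0.43 (95% interval -0.40 to 1.60; limma FDR 0.309). In pair C the share of PARRI_0013908 was 67.2 ± 4.26% (SD, n = 3) in females and 64.3 ± 4.38% (SD, n = 4) in males, with a change of -0.18 and an SE of 0.27 (95% interval -0.80 to 0.44; limma FDR 0.633). The ratios of the 2 sexes overlapped in each pair, whereas 45.7% of all 28543 neighbouring pairs did not overlap.

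Counted by the tests, 0 of 3 ratios passed by limma, against 38.9% of neighbouring pairs, and 0 of 3 had an unadjusted limma p under 0.05 (0.319, 0.200 and 0.519 for pairs A, B and C). The two-sided exact permutation test over the 35 ways to choose 3 of 7 libraries, which cannot give less than 0.0286, gave 0.4, 0.229 and 0.371. These intervals are wide for pairs A and B, and they include sex differences of the ratio of more than 1 on the log2 scale in both. PARRI_0003560 passed the sex comparison and PARRI_0003559 did not, but their difference was within the spread between libraries.

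**Figure D4:**
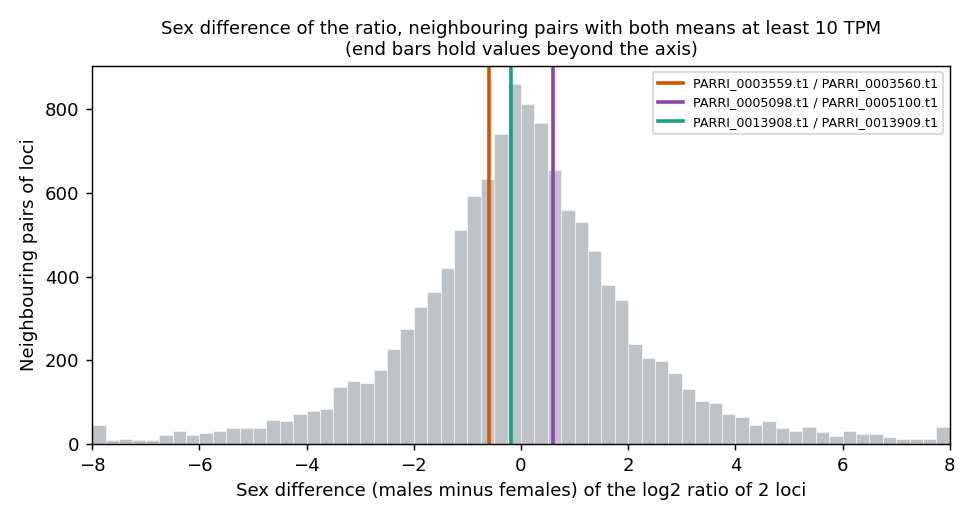
Number of neighbouring pairs of loci (both means at least 10 TPM, 12474 pairs) by the sex difference, males minus females, of their log2 ratio, with the 3 AMNP pairs as vertical lines and the end bars holding values beyond the axis. The AMNP pairs lie at -0.59, 0.60 and -0.18, each closer to 0 than the median absolute value of 1.14.

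Over all 7 libraries, sex differences included, the ratio varied less in each AMNP pair than in the median neighbouring pair. The SD of the ratio was 0.81 in pair A, 0.65 in pair B and 0.27 in pair C. The median SD was 0.89 over the 12474 neighbouring pairs with both means at least 10 TPM. Spread within a sex was not compared with that of other pairs. Neighbouring loci among the other AMNP transcripts gave 16 combinations, of which 15 were tested. Their SD ran from 0.217 to 1.28, a range that held all 3 pairs. None of the 15 had a sex difference of the ratio past an FDR of 0.05, and their differences ran from -1.17 to 0.83. All 15 had a level ratio past an FDR of 0.05, against 1 of the 3 pairs described here. Several of these combinations share a locus and are not independent.

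RSEM can divide reads between similar copies, so the TPM of the 2 members were also summed in each library. Since TPM is per length, a read moved from one member to the other leaves the sum about the same only where their lengths are alike. The effective length of the second member over the first, from the authors' mean normalized counts and the male TPM, was 1.58 in pair A, 1.03 in pair B and 1.48 in pair C. The sums of pairs A and C could therefore still depend on how any shared reads were divided. Whether the members of a pair shared reads was not tested. For pair A the female sum was 664 ± 253 TPM (SD, n = 3) and the male sum 1163 ± 237 TPM (SD, n = 4), or 1.75-fold higher, with female 1 above the lowest male. The log2 difference of the sum was 0.86 with an SE of 0.33 (95% interval 0.10 to 1.61; limma FDR 0.0559; exact permutation p 0.0857). Without female 1 it was 1.13 (limma FDR 0.0155), and without male 2 it was 1.00 (limma FDR 0.0496).

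For pair B the female sum was 325 ± 280 TPM (SD, n = 3) and the male sum 413 ± 117 TPM (SD, n = 4). Female 1, at 648 TPM, was the highest of the 7 libraries. The log2 difference was 0.64 with an SE of 0.50 (95% interval -0.49 to 1.76; limma FDR 0.294; exact permutation p 0.314). Without female 1 it was 1.30 (limma FDR 0.00639).

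For pair C the sums of female libraries 1 to 3 were 141, 91.0 and 52.8 TPM, and those of male libraries 1 to 4 were 182, 179.8, 170.2 and 194 TPM. The male mean, 181 ± 9.79 TPM (SD, n = 4), was 1.91-fold above the female mean, with no overlap. The log2 difference was 1.04 with an SE of 0.32 (95% interval 0.32 to 1.77; limma FDR 0.0240), and the exact permutation p was 0.0286, the smallest that 3 against 4 libraries can give. This was the 1 sum of 3 that passed, against 23% of neighbouring pairs with a sum higher in males by the same test and 52.7% with a change in either direction. Every male sum lay above every female sum in 1 of 3 pairs, against 24.3% of neighbouring pairs. The sum of pair C lost its call without female 2 (FDR 0.0594), female 3 (FDR 0.0646), male 1 (FDR 0.0523) or male 2 (FDR 0.0504).

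Among the other AMNP transcripts, those that passed were also all higher in males. Of the other 30 AMNP transcripts 28 were tested. By limma at an FDR of 0.05, 5 were higher in males and 0 were higher in females. Both shares lay below those of all tested transcripts, 25.3% and 23.9%. These 5 were PARRI_0017610 with a log2 difference of 1.83 (FDR 0.00217), PARRI_0012347 with 1.20 (FDR 0.0113), PARRI_0016101 with 1.16 (FDR 0.00758), PARRI_0009335 with 1.02 (FDR 0.0365) and PARRI_0014150.t1 with 0.89 (FDR 0.0335). PARRI_0009335 lost its call without any one of female 1, female 2, female 3, male 1 or male 3 (limma FDR 0.0561 to 0.109). PARRI_0014150.t1 lost it without female 3 or any single male library (limma FDR 0.0608 to 0.101). PARRI_0017610 was a weak transcript, at 5.46, 6.58 and 4.58 TPM in the females and 15.7, 23.2, 25.3 and 16.6 TPM in the males. A total of 26 of the 28 had a positive difference, but so did most tested transcripts, since the general median was itself positive. The general median of 0.50 was exceeded by 16 of the 28, but with quantile normalization, which moved that median to 0.01, by 25 of the 28. Every male library lay above every female library for 8, near the 28.1% of all tested transcripts. Their median was 0.72, with a range from -0.41 to 2.13. Together the 6 members made up 10.7%, 9.82% and 8.46% of the summed AMNP TPM in female libraries 1 to 3 and 13.6%, 11.2%, 13.2% and 10.2% in male libraries 1 to 4. The shares of the 2 sexes overlapped, and 7 other AMNP transcripts had a higher mean than any member.

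The loci around the pairs did not share 1 direction. For each pair the first transcripts of 10 loci before and 10 loci after it by number were taken, none of which was an AMNP transcript. Around pair A 19 were tested, of which 4 were higher in males and 5 in females, with a median log2 difference of 0.15 (range -3.34 to 5.07). Around pair B 16 were tested, of which 4 were higher in males and 1 in females, with a median of 0.82 (range -1.22 to 4.25). Around pair C 10 were tested, of which 3 were higher in males and 2 in females, with a median of 0.92 (range -2.64 to 2.63). With only 5 loci on each side the medians were 0.71, 0.66 and 1.38. Over all tested transcripts 25.3% were higher in males and 23.9% in females, and the median was 0.50. PARRI_0005099, the locus between the members of pair B and not annotated as AMNP, had a mean of 43.9 TPM in females and 62.1 TPM in males, a log2 difference of 0.50 with an SE of 0.33 that did not pass (limma FDR 0.226).

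**Figure D5:**
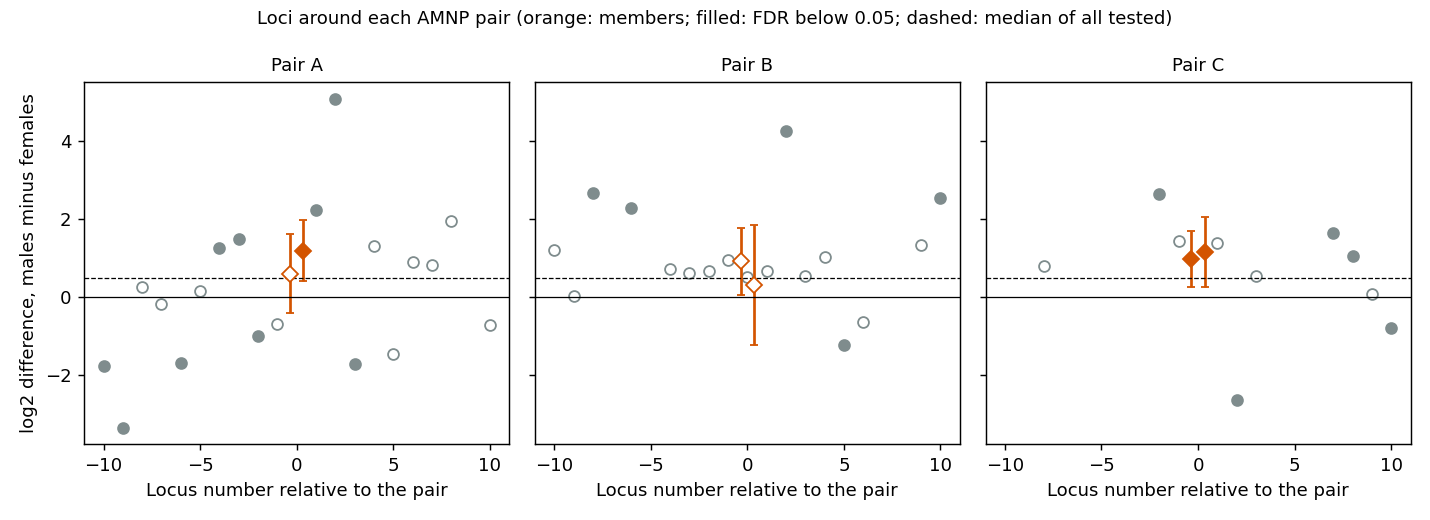
Log2 difference between males and females of tested loci around each pair, by locus number relative to the pair (0 in pair B is the locus between its members). Orange diamonds are the members with their 95% intervals, filled points passed an FDR of 0.05, and the dashed line is the median of all tested transcripts (0.50). Filled points lie on both sides of 0 around each pair.

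How alike 2 transcripts were was measured as the SD of their log2 ratio over the 7 libraries, a description with no test, in which a small value means parallel levels. Among the 15 combinations of members, the closest was PARRI_0005098 with PARRI_0013908 of another pair (SD 0.24). PARRI_0003559 with PARRI_0005098 followed (SD 0.26), then the 2 members of pair C (SD 0.27). The 2 members of pair B came in place 9 and those of pair A in place 12 of 15, and the widest were PARRI_0003560 and PARRI_0005100 (SD 1.09).

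Against 10676 candidates with a mean of at least 10 TPM, the partner ranked at 2852 for PARRI_0003559, 2787 for PARRI_0003560, 2023 for PARRI_0005098 and 108 for PARRI_0005100. It ranked at 210 for PARRI_0013908 and 96 for PARRI_0013909. Both ranks in pair B belong to the same SD of 0.65. Fewer candidates lay within that SD for PARRI_0005100 than for PARRI_0005098. The most parallel transcripts were PARRI_0015478.t1 (SD 0.087) and PARRI_0001602.t1 (SD 0.13) for PARRI_0003559, and PARRI_0005190.t1 (SD 0.10) and PARRI_0001457.t1 (SD 0.13) for PARRI_0003560. For PARRI_0005098 they were PARRI_0004647.t1 (SD 0.11) and PARRI_0009310.t1 (SD 0.11), and for PARRI_0005100 PARRI_0010549.t1 (SD 0.21) and PARRI_0004211.t1 (SD 0.34). For PARRI_0013908 they were PARRI_0012115.t1 (SD 0.11) and PARRI_0015460.t1 (SD 0.12), and for PARRI_0013909 PARRI_0019899.t1 (SD 0.13) and PARRI_0020323.t1 (SD 0.15). None of these 12 was an AMNP transcript.

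Some AMNP transcripts stood close behind. Among the 100 most parallel candidates of each member were 5 AMNP transcripts for PARRI_0003559, 1 for PARRI_0003560, 7 for PARRI_0005098, 5 for PARRI_0005100, 2 for PARRI_0013908 and 2 for PARRI_0013909, while AMNP made up 0.309% of the candidates. PARRI_0005098 had PARRI_0007608 in place 4 (SD 0.16) and PARRI_0009205 in place 7 (SD 0.16), neither of them in its own pair. The single AMNP transcript near PARRI_0003560 was PARRI_0009335 in place 7 (SD 0.17). It stood at 455, 501 and 400.3 TPM in the females and 1386, 686, 1099.8 and 657 TPM in the males. Male libraries 1 and 3 lay above 2 and 4, as in PARRI_0003560. Several other AMNP transcripts showed this split as well, and others did not. In PARRI_0003559, the neighbour of PARRI_0003560, the highest males were libraries 1 and 4.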

How the data were processed

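Total RNA was poly A-selected and sequenced from 3 female and 4 male tubes. The authors quantified the reads on coding sequences with RSEM 1.3.3 and deposited a signal for each transcript in each library, TPM rescaled by TMM, without counts. The submitters' processing notes also name DESeq2 1.38.0, and the authors' deposited table of that comparison holds mean normalized counts (a signal per sex), fold changes and p-values. Only its means were used, as the authors' means. Reads of similar copies may have been divided between them by RSEM, and how this bears on single members was not tested. The sex and number of each library came from the labels.

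The comparison used log2(TPM + 0.1) and limma 3.58.1 (R 4.3.3). Sex was the only term, the prior was trended, tests were two-sided, and the Benjamini-Hochberg FDR had to be below 0.05. A transcript was tested if it had at least 1 TPM in at least 3 of 7 libraries, and all 6 members passed. The pseudocount makes the changes of weak transcripts look smaller. Within-pair ratios and sums were fitted over 28543 neighbouring pairs. The fits were also run on simulated data with planted sex differences larger than those of the members. That run does not show how well differences of the members' size are found. Figures used Python 3.11.15, pandas 2.3.3 and matplotlib 3.10.9. Precision is given as the SD between libraries.

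The members and lists were chosen with earlier results of these data known. All members were named, with other AMNP transcripts past the FDR, the locus between the members of pair B, and the 2 most parallel transcripts of each member. The AMNP transcripts among the 100 most parallel, with the values of PARRI_0009335, PARRI_0016103.t2 and PARRI_0017610, were named after their values were seen. Alternatives were pseudocounts of 1 and 0.01, no filter, a mean of at least 5 TPM, rescaling to equal sums, quantile normalization, an untrended and a robust prior, array weights, replicate number as a block, 5 flanking loci, and leaving out each library. Subtracting the median of all transcripts was added after seeing the data. No identifier matched the RefSeq gene table, so coordinates and sequences were not used here.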

Additional observations from a re-analysis of the deposited data

How the results depend on the processing

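No result changed direction past a threshold under any alternative. Of the 6 members, 3 passed at first, 2 with rescaling to equal sums, 1 with an untrended prior and 6 with array weights. Calls higher in males over all tested transcripts were 4662 of 18420 at first and 4430 of 18448 with rescaling. The untrended prior called 4692 of 18420 and array weights 7255 of 18420. PARRI_0013909 lost its call with rescaling to equal sums (limma FDR 0.0588). With the untrended prior PARRI_0013908 (limma FDR 0.0511) and PARRI_0013909 (limma FDR 0.0564) both lost theirs. Array weights gave female library 2 a weight of 24.9, and their iteration stopped before it converged. They also called 17 other AMNP transcripts in place of 5, 2 level ratios and 3 pair sums in place of 1 each, among them the sum of pair A (0.83, FDR 0.00145), the sum of pair B (1.18, FDR 0.000701) and the level ratio of pair B (0.53, FDR 0.0144). Leaving out 1 library at a time gave 0 to 5 called members (0 without female 3 or male 1, and 5 without female 1), 3 to 11 other AMNP transcripts, 1 to 2 level ratios and 0 to 3 pair sums. Calls higher in males over all tested transcripts moved too, to 3125 of 18159 without female 3 and 3065 of 17906 without male 1. They numbered 5552 of 18022 without female 1. Leaving out 1 library at a time moved the log2 sum difference of pair A over 0.57 to 1.13. That of pair B ran over 0.23 to 1.30 and that of pair C over 0.68 to 1.39. The level ratio of pair B ran over 0.22 to 0.54. The fitted difference of PARRI_0005100, which never passed there, ran from -0.17 to 1.16. None of the sex differences of the within-pair ratios passed under any alternative. The median around pair A moved from 0.15 to 0.71 with 5 loci on each side. Quantile normalization moved the median of all transcripts from 0.50 to 0.01 and a mean of at least 5 TPM moved it to 0.03, and all 6 members then lay above it, with 25 of 28 and 25 of 27 other AMNP transcripts in place of 16 of 28. Deviations of same-numbered female and male libraries had correlations of 0.0444, 0.00940 and 0.321 over 10677 transcripts. The last was the highest of all combinations. Differently numbered libraries ran from -0.306 (female 1 with male 3) to 0.280 (female 1 with male 4). So few values cannot decide whether the replicate numbers pair the libraries. With replicate number as a block 2 members passed, 4 other AMNP transcripts passed, and PARRI_0013909 (FDR 0.0921), PARRI_0009335 (FDR 0.0537) and PARRI_0014150.t1 (FDR 0.0943) did not. By that fit 3712 of 18420 tested transcripts were higher in males. PARRI_0009335 also lost its call with no filter (FDR 0.0530) and PARRI_0014150.t1 with quantile normalization (FDR 0.0760), while PARRI_0012347, PARRI_0016101 and PARRI_0017610 kept theirs under all alternatives run. TPM keeps no depth, so no limit from depth was computed.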
